A study of Caenorhabditis elegans with 3 samples.

Results

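The body shape and blister collagens of the nematode Caenorhabditis elegans were followed here as 10 genes: the roller gene rol-6, the squat genes sqt-1, sqt-2 and sqt-3, the dumpy genes dpy-4, dpy-5 and dpy-13, the long gene lon-3 and the blister genes bli-1 and bli-2. They were taken by name among the array probes annotated to a single gene, and all 10 were measured, on 12 probes, among 14686 named genes and 19580 features in all. On each of 3 arrays with 2 channels, total RNA from L3 larvae of the glp-4 strain (preps 1, 3 and 4, n = 3) was hybridised against one mixed reference RNA of wild type. Mutants of glp-4, which encodes a valyl-tRNA synthetase, serve as worms with a small germ line; the labels name neither the allele, the temperature, the age in hours nor the stages pooled in the reference. Genotype and stage differ together between the channels, and nothing in the labels says whether the preps were separate cultures, so the p-values measure only the spread between these preps, which may be technical.

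Cuticle collagens are secreted by the epidermis at each molt, and a new cuticle is built under the old one before the old one is shed. Each chain holds runs of glycine-X-Y repeats that wind into trimers, after hydroxylation of prolines, and the chains are then trimmed by proteases and crosslinked. The set of collagen genes in use differs between larval, dauer and adult cuticles. Mutations in the genes described here change the shape of the body or the integrity of the cuticle, which is how they were named: rollers twist along the long axis, squat and dumpy animals are short, lon-3 mutants are long, and in blister mutants the layers of the adult cuticle separate.

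All values are log2 ratios, centred on the median of each array with positive values taken as higher in glp-4 L3. The labels do not state the direction of the ratio. This direction is the likely one, and it was read partly from germ cell genes. All 10 of 10 germ cell markers (among them oma-2, oma-1 and him-3) were lower, with a list median of -2.54, so their side is not independent evidence; with the ratio turned, every direction below turns with it. Because the reference was a pool, a ratio cannot tell a difference in RNA per cell from a difference in the share of cells or stages that make it. The arrays were not alike. Across 19580 features Pearson's r was 0.84 between preps 3 and 4, but 0.66 and 0.61 between prep 1 and those arrays, and the array titles also set prep 1 apart from preps 3 and 4, by their letters and by what reads as a date. Results are therefore given with and without prep 1 where it bears on them.

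The collagens lay above the reference as a group. On each array, 10 of 10 had a positive log2 ratio, and a ratio above 0 on all 3 arrays was seen for 29.1% of all features. A log2 ratio above 1 on all 3 arrays was found for 8 of the 10, against 3.51% of all features. Over all features tested, 8.26% were higher and 8.37% lower by limma at a Benjamini-Hochberg adjusted p under 0.05, which is 16.6% in either direction. Of the 10 collagens, 7 were higher, 3 did not pass and 0 were lower (0 were lower also at an unadjusted limma p under 0.05, where 9 were higher; of all features, 17.1% were higher and 18.2% lower at that p). The median of the 10 mean log2 ratios was 1.99, and the median of all features was 0.00 to 2 decimals. The members were chosen with results of these data known, so the shares are a description. The 7 were rol-6, sqt-1, sqt-2, dpy-4, dpy-5, dpy-13 and lon-3, and the 3 others were sqt-3, bli-1 and bli-2.

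**Figure D1:**
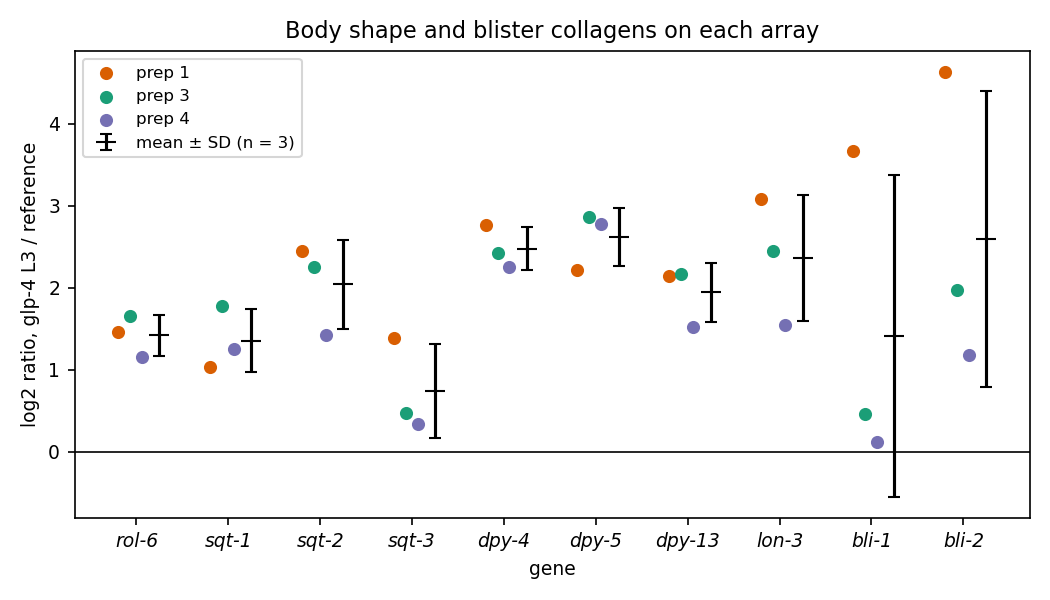
Log2 ratio (glp-4 L3 over reference, centred on the array median; vertical axis) of each of the 10 collagen genes on the arrays of preps 1, 3 and 4 (points), with the mean ± SD of the 3 arrays (black bars). All 30 values lie above 0; bli-1 and bli-2 stand at 3.66 and 4.63 with prep 1 and lower with the other preps.

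The largest called differences were those of dumpy collagens. The gene dpy-5 (F27C1.8), whose loss gives a short, stout animal, was at 2.21, 2.87 and 2.78 with preps 1, 3 and 4. Its mean log2 ratio was 2.62 ± 0.35 (SD, n = 3), a 6.14-fold higher signal in glp-4 L3 (limma adjusted p = 0.00327). Prep 1 gave the lowest of its values, unlike most of the set. The gene dpy-4 (Y41E3.2), another cuticle collagen of the dumpy class, was at 2.76, 2.42 and 2.25 in the order of preps 1, 3 and 4, with a mean of 2.48 ± 0.26 (5.57-fold; limma adjusted p = 0.00301). It has 2 probes, at 2.29 ± 0.20 and 2.66 ± 0.31, and both passed when each probe was tested alone. These were the only members that passed the threshold with all 3 preps and without any single one of them.

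The gene dpy-13 (F30B5.1), a collagen whose mutants are dumpy, was at 2.14, 2.17 and 1.53 with preps 1, 3 and 4. Its mean was 1.94 ± 0.36, or 3.84-fold higher (limma adjusted p = 0.00577). Preps 1 and 3 nearly coincided and prep 4 was lower. In the gene order of the WBcel235 RefSeq annotation, the numbered collagen gene col-34 (F36A4.10) directly neighbours dpy-13, and its mean was 0.67 ± 0.45 without passing (limma adjusted p = 0.099). The col-34 values, 1.17, 0.29 and 0.56, were below those of dpy-13 on each array.

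Of the squat collagens, 2 of 3 were higher. The gene sqt-2 (C01B12.1) was at 2.45, 2.25 and 1.43 with preps 1, 3 and 4, with a mean of 2.04 ± 0.54 (4.12-fold; limma adjusted p = 0.00776). The gene sqt-1 (B0491.2), in which different mutations give squat, roller or dumpy animals, was at 1.03, 1.77 and 1.25, with a mean of 1.35 ± 0.38 (2.55-fold; limma adjusted p = 0.0139). Prep 1 was the highest of the 3 for sqt-2 and the lowest for sqt-1. The gene sqt-3 (F23H12.4), also known as col-1, had the smallest mean of the 10, at 0.74 ± 0.57, from 1.39, 0.48 and 0.34 with preps 1, 3 and 4. It did not pass (limma adjusted p = 0.109), and the 95% interval of its mean ran from 0.09 to 1.38 before adjustment. Its prep 1 value lay clear of the other 2, and without prep 1 the mean was 0.41. The 2 probes of sqt-3 were at 0.87 ± 0.43 and 0.60 ± 0.72, and neither passed alone (limma adjusted p = 0.0549 and 0.214). With prep 4 these probes differed, at 0.66 and 0.02.

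The roller collagen rol-6 (T01B7.7), known from the dominant roller allele used as a marker of transgenic worms, was at 1.46, 1.65 and 1.15 with preps 1, 3 and 4. Its mean was 1.42 ± 0.25 (2.68-fold; limma adjusted p = 0.00869), with the smallest SD of the 10. Mutations of rol-6 and sqt-1 interact genetically, and the gene products are thought to act together in the cuticle. Of the 149 other collagens compared, sqt-1 was the nearest to rol-6, and rol-6 the nearest to sqt-1, by the root mean square difference of the log2 ratios over the 3 arrays (0.27). The difference of sqt-1 minus rol-6 was -0.07 ± 0.31 over the arrays, which is within its spread. The same held for sqt-2 and dpy-13, each the nearest collagen to the other (root mean square difference 0.20). Numbered collagens were the nearest to dpy-4 (col-13, 0.27), dpy-5 (col-93, 0.29) and sqt-3 (col-34, 0.21). With 3 arrays and 149 candidates, such likeness is a description of these values only.

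The collagen gene lon-3 (ZK836.1), whose loss makes animals longer and whose excess makes them shorter, was at 3.09, 2.45 and 1.55 with preps 1, 3 and 4. Its mean was 2.36 ± 0.77 (5.14-fold; limma adjusted p = 0.00978). The values spread over a range wider than those of any of the dumpy collagens. The adjusted p was 0.063 with the arrays scaled to a common median absolute deviation, which ended the call, although the mean was then 2.85. The nearest collagen to lon-3 was sqt-2, at a root mean square difference of 0.39.

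The blister collagens had the widest spread. The genes bli-1 and bli-2 encode collagens needed for the struts that join the layers of the adult cuticle. The gene bli-1 (C09G5.6) was at 3.66, 0.46 and 0.11 with preps 1, 3 and 4, which are linear ratios of 12.7, 1.37 and 1.08. The gene bli-2 (F59E12.12) was at 4.63, 1.97 and 1.18, or linear ratios of 24.8, 3.91 and 2.27. For both genes the prep 1 value stood far above the other 2. Their means were 1.41 ± 1.96 and 2.59 ± 1.81, and neither passed (limma adjusted p = 0.212 and 0.0535). The 95% intervals before adjustment ran from -0.37 to 3.19 for bli-1 and from 0.94 to 4.24 for bli-2.

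Without prep 1 the blister genes parted. The mean of bli-2 over preps 3 and 4 was 1.58, and it passed (limma adjusted p = 0.00844), while that of bli-1 was 0.28 and did not (adjusted p = 0.31). On each array, however, bli-2 was above bli-1, by 0.96, 1.51 and 1.07 with preps 1, 3 and 4. Of 19580 features, bli-2 ranked 8 and bli-1 ranked 38 from the top on the prep 1 array. On the prep 4 array they ranked 2114 and 8709. Over all probes the SD before centring was smallest with prep 1, at 0.71, against 0.96 and 1.14 with preps 3 and 4. The high blister values thus stood on the array with the narrowest spread.

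**Figure D2:**
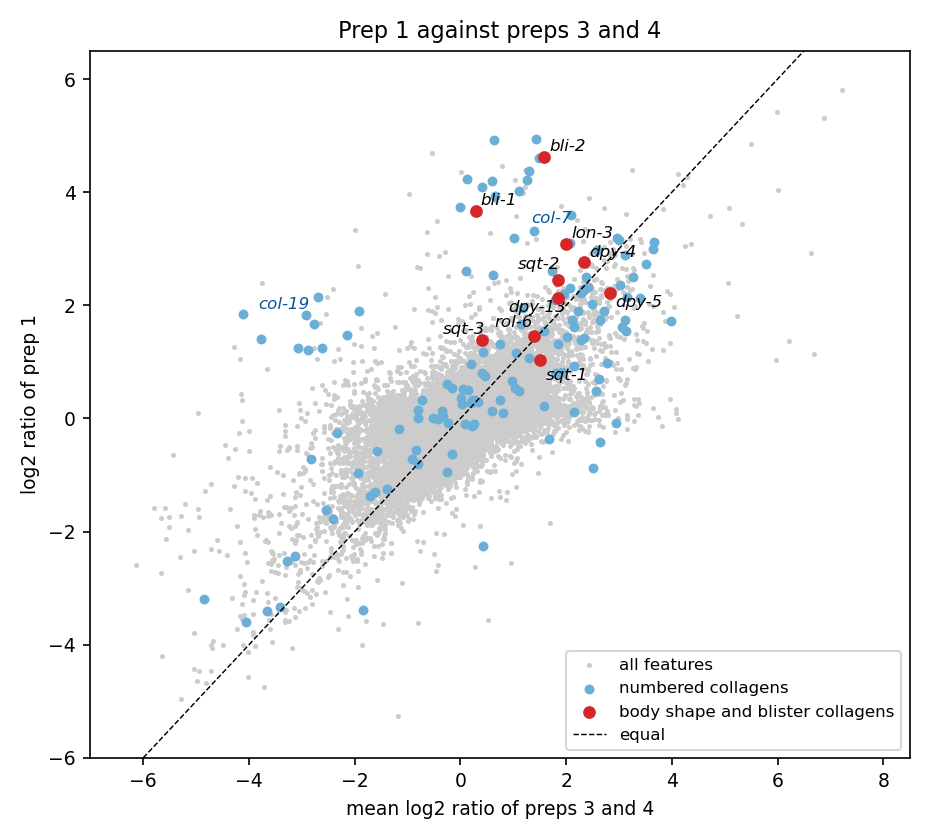
Log2 ratio with prep 1 (vertical axis) against the mean log2 ratio of preps 3 and 4 (horizontal axis) for all 19580 features (grey), 133 numbered collagens (blue) and the 10 body shape and blister collagens (red), with equality dashed. The blister genes lie 3.38 (bli-1) and 3.05 (bli-2) above equality among a cluster of numbered collagens, and col-19 lies 4.75 above it.

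The gap between prep 1 and the mean of preps 3 and 4 was 3.38 for bli-1 and 3.05 for bli-2. Across the 8 other members it ran from -0.61 for dpy-5 to 1.09 for lon-3. A gap above 2, a limit chosen after the values were seen, was found for 2 of the 10 members and for 1.47% of all features. Among numbered collagens, named col and a number, 25 of 133 (18.8%) had such a gap, and 8 had a gap below -2, where the share of all features was 0.848%. The nearest collagen to bli-1 was col-63 (ZK265.2), at 3.93, 0.62 and 0.68 with preps 1, 3 and 4. The nearest to bli-2 was col-138 (C52D10.13), at 4.93, 1.42 and 1.45. Both of these numbered collagens were high with prep 1 and lower on the other arrays.

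The 25 numbered collagens fell on both sides of the reference. Of them, 12 were above 0 in the mean of preps 3 and 4, as bli-1 and bli-2 were, and stood between 2.61 and 4.93 with prep 1. The other 13 were below 0 in that mean, down to -4.12, and had a median of 1.47 with prep 1. One of the 13, col-139, lay at the reference in that mean (-0.004) and at 3.735 with prep 1. Others, col-50 and col-72, stayed below 0 with prep 1 too, at -0.72 and -0.25. The adult collagen gene col-19 (ZK1193.1), known as a marker of the adult epidermis, was also among the 13. Its values were 1.83, -2.78 and -3.06 with preps 1, 3 and 4. The other adult-stage collagen examined, col-7 (C15A11.5), was at 3.31, 1.27 and 1.53, and was higher in the mean of the 3 arrays (2.04 ± 1.11; limma adjusted p = 0.0322). Both genes were highest with prep 1, on the array where bli-1 and bli-2 were highest. So were 64 of the 133 numbered collagens and 35.1% of all features. The gap of col-7 was 1.91, under the limit of 2. Whether the preps differed in stage was not tested, and what the letters and date in the array titles stand for cannot be told apart from prep 1.

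Markers of germ cells and of the epidermis were set beside the blister genes. The median log2 ratio of the 10 germ cell markers was -2.62, -2.36 and -2.63 on the arrays of preps 1, 3 and 4. Of the 5 epidermal transcription factor genes taken as markers (elt-1, elt-3, lin-26, nhr-23 and nhr-25), 0 passed in either direction by limma, with 1 lower and 0 higher at an unadjusted p under 0.05. Of all features, 8.26% were higher and 8.37% lower, and 17.1% and 18.2% at an unadjusted p, so counts this small are a description. The median log2 ratio of the 5 markers was -0.41, -0.07 and -0.16 with preps 1, 3 and 4. Prep 1 was the lowest array for 4 of the 5 and the highest for lin-26, at -0.28 against -0.48 and -0.69. It was the lowest for 41.6% of all features and the highest for 35.1%. The part of either cell type in the blister values was not tested.

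The order of the means did not separate most neighbours. From the top it was dpy-5, bli-2, dpy-4, lon-3, sqt-2, dpy-13, rol-6, bli-1, sqt-1 and sqt-3, as differences from the reference and not as levels of RNA. Of the 9 pairs next to each other in this order, 7 differed by less than the SD of their difference over the arrays. The exceptions were lon-3 over sqt-2, by 0.32 ± 0.28, and dpy-13 over rol-6, by 0.52 ± 0.15, each with the same sign on 3 of 3 arrays. The values of the members were alike between preps 3 and 4, with Pearson's r of 0.93 over the 10 members. Those of prep 1 were not like them, with r of 0.07 against prep 3 and -0.06 against prep 4. Preps 3 and 4 did not keep the order of the means: on both, bli-1 was the lowest member, at 0.46 and 0.11. Without bli-1 and bli-2 these values for the other 8 were 0.91, 0.67 and 0.54. The arrays share the reference RNA, and no test was made of these correlations.

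The calls depended on which preps entered. Without prep 1, 8 of the 10 were higher, where 16.3% of all features were. Without prep 4, 6 were higher (3.19% of all features), and sqt-1 was the member lost. Without prep 3, 2 were higher, dpy-4 and dpy-5, where 0.883% of all features were. The means moved little for the members that lost their call without prep 3: rol-6 was then at 1.31, sqt-1 at 1.14, sqt-2 at 1.94, dpy-13 at 1.83 and lon-3 at 2.32.

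**Figure D3:**
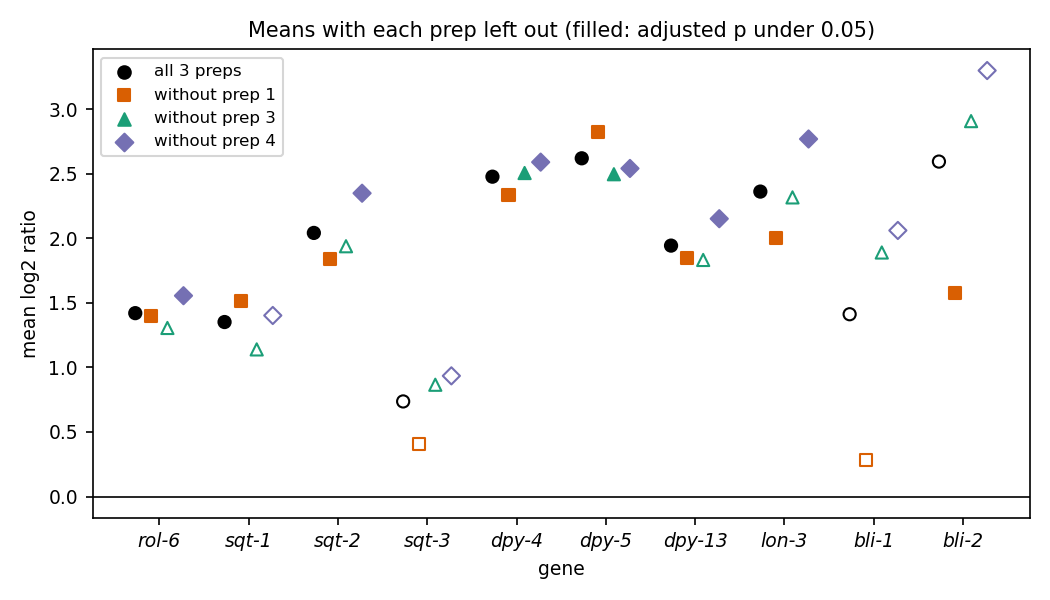
Mean log2 ratio of each collagen over all 3 preps (circles), and without prep 1 (squares), prep 3 (triangles) or prep 4 (diamonds); filled symbols passed limma at an adjusted p under 0.05. The genes dpy-4 and dpy-5 are filled throughout, and bli-1 falls to 0.28 without prep 1.

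Other collagens named for body shape did not all lie on the same side. Of the 6 collagens of the annular furrows, the circular grooves of the cuticle, 5 were measured, 1 was higher and 0 lower (0 lower also at an unadjusted limma p under 0.05, and 3 higher), with a median of 0.86. Of all features, 8.26% were higher at an adjusted and 17.1% at an unadjusted p, so counts this small are a description. The one that passed was dpy-9 (T21D12.2), at 1.25 ± 0.45 (limma adjusted p = 0.0215). The others were dpy-8 at 0.90 ± 0.67, dpy-3 at 0.86 ± 0.44, dpy-2 at 0.61 ± 0.66 and dpy-7 at 0.53 ± 0.66. Without prep 1, 1 of the 5 was higher and 0 lower, where 16.3% of all features were higher. Without prep 3, 0 of the 5 passed (1 higher and 0 lower at an unadjusted limma p under 0.05, where 8.74% of all features were higher and 9.58% lower). All 5 were highest with prep 1, as were 35.1% of all features. Their gaps to the mean of preps 3 and 4 were between 0.56 and 0.98, smaller than those of the blister genes.

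The gene dpy-17 (F54D8.1) went the other way. It encodes a cuticle collagen that is needed genetically together with sqt-3, and it was at -1.98, -2.62 and -2.54 with preps 1, 3 and 4, with a mean of -2.38 ± 0.35, or 5.2-fold lower in glp-4 L3 (limma adjusted p = 0.0038). It passed without any single prep too. The roller collagen rol-8 (ZK1290.3) was at -0.49 ± 0.48 and did not pass (limma adjusted p = 0.195). Values for dpy-10, dpy-14 and bli-6 were not analysed here. Of the 133 numbered collagens, 50 were higher and 16 lower; their median was 1.00. Leaving out prep 1 gave 65 higher and 31 lower, leaving out prep 3 gave 22 and 7, and leaving out prep 4 gave 39 and 12. Of all features, 8.26% were higher and 8.37% lower with all 3 preps. Without preps 1, 3 and 4 in turn, 16.3%, 0.883% and 3.19% of all features were higher. The features lower were then 3464 of 19651, 212 of 19703 and 617 of 19808. The extremes among the numbered collagens were col-150 at 3.48 ± 0.46, col-161 at 3.42 ± 0.40 and col-126 at 3.25 ± 0.67 above, and col-36 at -4.30 ± 0.99, col-84 at -3.91 ± 0.44 and col-158 at -3.58 ± 0.15 below. Thus 7 of 10 body shape and blister collagens and 50 of 133 numbered collagens were higher, and 0 of 10 and 16 of 133 were lower; the difference between these shares was not tested. Collagen genes are related in sequence, and whether their probes share signal was not tested.

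Genes listed under collagen processing and crosslinking, with sec-23 and bli-5 among them, were above the reference or did not pass. In this list of 16 genes, 7 were higher and 0 lower (11 and 0 at an unadjusted limma p under 0.05), with a median of 0.72. The shares of all features were 8.26% higher and 8.37% lower, and 17.1% and 18.2% at an unadjusted p. The largest means were those of nas-36 (C26C6.3), an astacin protease of molting, at 1.70 ± 0.40 (limma adjusted p = 0.00837), pdi-2 (C07A12.4), the protein disulfide isomerase subunit of collagen prolyl hydroxylases, at 1.51 ± 0.20 (adjusted p = 0.00684), and mlt-7 (ZK430.8), a heme peroxidase of the cuticle, at 1.42 ± 0.31 (adjusted p = 0.0101). Prep 1 was the lowest array for 9 of the 16 and the highest for 3, where it was the lowest for 41.6% of all features and the highest for 35.1%. It was the lowest for 2 and the highest for 6 of the 10 body shape and blister collagens, and the difference between the lists was not tested. Without prep 1, 9 of the 16 were higher and 0 lower, where 16.3% of all features were higher. Without prep 3, 0 of the 16 passed (at an unadjusted limma p under 0.05, 7 higher and 0 lower, against 8.74% and 9.58% of all features). Without prep 4, 2 passed, both higher, against 3.19% of all features. At an unadjusted limma p under 0.05, 9 were then higher and 0 lower, against 11.2% and 10.4% of all features.

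The DBL-1 pathway, a TGF-beta signal that sets body length, includes the SMAD genes sma-3 (R13F6.9) and sma-4 (R12B2.1) and the glypican gene lon-2 (C39E6.1), which acts against the signal. Of 10 measured genes, 3 were higher and 0 lower (4 and 1 at an unadjusted limma p under 0.05), with a median of 0.26, where 8.26% of all features were higher (17.1% at an unadjusted p, and 18.2% lower). They were sma-4 at 1.01 ± 0.42 (limma adjusted p = 0.0346), lon-2 at 0.94 ± 0.14 (adjusted p = 0.0202) and sma-3 at 0.93 ± 0.37 (adjusted p = 0.0366). The genes that passed hold a repressor as well as transducers of the pathway. Among 16 measured regulators of molting and of the epidermis, 1 was higher and 0 lower (7 and 1 at an unadjusted p), with a median of 0.34. A count of 1 in 16 is no more than the 8.26% of all features that were higher; at an unadjusted p, 17.1% of all features were higher and 18.2% lower. The gene was qua-1 (T05C12.10), a hedgehog-related gene required for molting, at 1.03 ± 0.25 (limma adjusted p = 0.0199). Without prep 3 or without prep 4, 0 genes of either list passed. At an unadjusted limma p under 0.05, the DBL-1 list then held 3 higher without prep 3 and 4 without prep 4, and the list of regulators 2 and 6, with 0 lower in each. Of all features, 8.74% were then higher and 9.58% lower without prep 3, and 11.2% and 10.4% without prep 4. Without prep 1, 3 of the 10 DBL-1 genes were higher and 0 lower. In the same fit 2 of the 16 regulators were higher, no more than the 16.3% of all features that were.

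**Figure D4:**
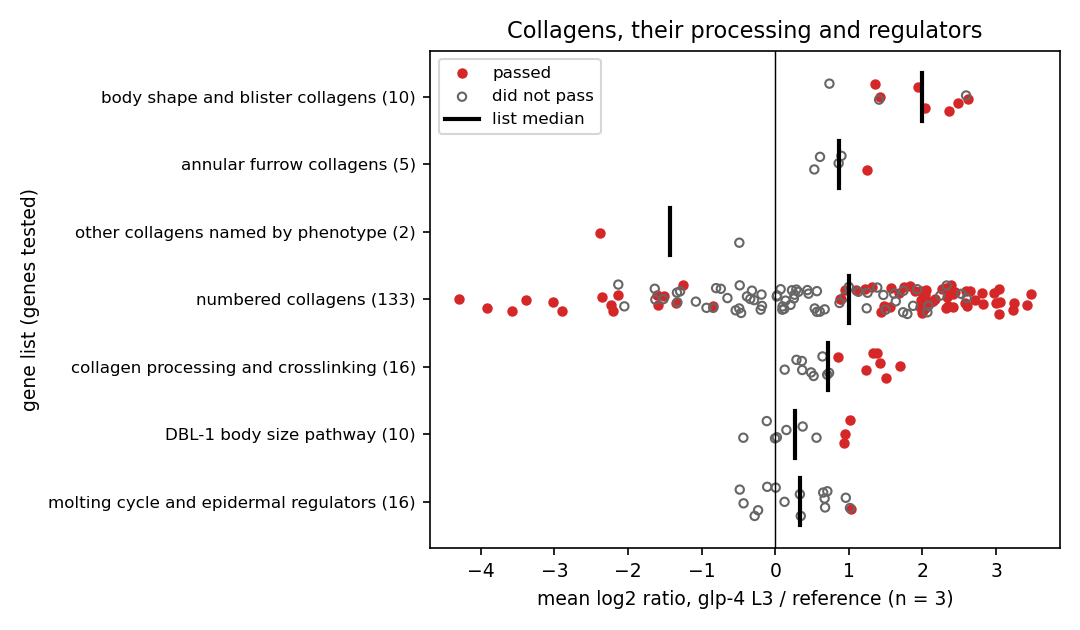
Mean log2 ratio (glp-4 L3 over reference, n = 3; horizontal axis) of each gene tested in 7 lists (rows, with the number of genes), filled where limma's adjusted p was under 0.05 and open otherwise; black bars are list medians. The 10 body shape and blister collagens lie between 0.74 and 2.62, while the 133 numbered collagens range from -4.30 to 3.48.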

How the data were processed

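The authors deposited a table of log2 ratios, one value per probe and array, for 21632 probes and 3 arrays; scanner intensities were not used. The scale was read from the values: below a ratio of 1, 100.0% were logarithms of ratios with 3 decimals, to within 0.01 thousandths. Array medians were -0.0072, -0.0247 and -0.0262 for preps 1, 3 and 4. Background correction, normalization and dyes are unknown here (not given in the sources used), so signal over background is unknown; the number of arrays limits the precision. Of the probes, 16450 had 1 gene in the platform annotation, 247 several and 4935 none; 16360 were matched to RefSeq symbols (WBcel235) by gene number and 5 by accession. No probe build is named, so no coordinates are given.

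The median of each array was subtracted, and a gene's probes were averaged per array. The 19580 features measured on all arrays were fitted with limma 3.58.1 (R 4.3.3; lmFit, eBayes), mean against 0, with Benjamini-Hochberg adjustment over all features; the reference counts as 1 control RNA whose own spread is left out. Members and lists were chosen with earlier results of these data known. Named were all members, genes of short lists, up to 3 genes past the threshold per direction in longer lists, and the nearest collagen to each member; neighbouring genes were chosen after their values were seen.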

Additional observations from a re-analysis of the deposited data

How the results depend on the processing

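All 10 collagens kept a mean above 0 under every alternative run. Each of them was above 0 on every array, so leaving out or reweighting arrays could not give another sign. Of 82 values of members under 8 settings other than leaving out a prep, 80 kept their side of the threshold. Part of that count was fixed in advance. The 2-fold limit reused the main fit, where every called member had a mean above 1. Testing each probe alone changed the means only of dpy-4 and sqt-3, which have several probes. The values that crossed the threshold were those of lon-3, which lost its call with arrays scaled to a common median absolute deviation (mean log2 ratio 2.85), and bli-2, which passed with array weights (2.11). Array weights also raised the counts of all features to 3938 higher and 4161 lower, from 1617 and 1638. Without 1 prep these counts ranged from 174 to 3211 higher and from 212 to 3464 lower, and the count of higher collagens from 2 to 8. The means without 1 prep ranged from 1.31 to 1.55 for rol-6, 1.14 to 1.51 for sqt-1, 1.84 to 2.35 for sqt-2, 1.83 to 2.15 for dpy-13, 1.999 to 2.77 for lon-3, 1.58 to 3.30 for bli-2, 0.28 to 2.06 for bli-1 and 0.41 to 0.93 for sqt-3; those of dpy-4 and dpy-5 ranged from 2.34 to 2.59 and from 2.50 to 2.82. The fits without a prep rest on fewer arrays; the cause of the other changes was not tested. The grouping of the arrays by title letters, which follows what reads as a date, could not be fitted as a random block, because duplicateCorrelation gave no value. No paired analysis was possible because there is 1 group.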

Other observations

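The genes next to the collagens in the WBcel235 gene order were also read. Of 19 measured protein-coding neighbours, 2 were higher and 4 lower (limma, adjusted p under 0.05), with a median mean log2 ratio of -0.15, where 8.26% of all features were higher and 8.37% lower. The higher ones were col-80, beside bli-1, and F23H12.5, beside sqt-3. With preps 1, 3 and 4, col-80 was at 2.22, 1.99 and 2.58 (mean 2.26 ± 0.30; limma adjusted p = 0.00378), without the prep 1 excess of bli-1. The gene F23H12.5 was at 0.77 ± 0.04 (limma adjusted p = 0.032), close to the mean of sqt-3 but with a far smaller spread. The lower ones were F27C1.2 beside dpy-5 (-1.09 ± 0.13), enee-1 beside sqt-2 (-0.67 ± 0.11), and zyg-1 (-0.73 ± 0.17) and F59E12.1 (-0.98 ± 0.36) on either side of bli-2. These genes were chosen by position, and named after their values were seen.

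The collagen with the largest excess of prep 1 over the other preps was col-140 (F26F12.1), chosen after its value was seen, at 1.84 with prep 1, -4.39 with prep 3 and -3.85 with prep 4. It ranked 2 of 19580 features by this gap, where bli-1 ranked 65 and bli-2 ranked 92.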
